A study of Mus musculus with 60 samples.

Results

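The genes described here are 9 genes in common use as markers of astrocytes: Gfap, Aqp4, Slc1a2, Slc1a3, Aldh1l1, S100b, Gja1, Glul and Gjb6. They were matched by symbol, under a rule that sets no threshold on a measured value, and all 9 were found among the 21999 genes of the deposited tables. All 9 passed the filter on low counts in every fit.

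The libraries came from 20 mice, each of which gave 1 library from prefrontal cortex, 1 from striatum and 1 from hippocampus. The genotypes were wild type (WT) and Glo1 knockout (KO). The normal diet held 1.4 mg of vitamin B6 in each 100 g, and the diet lacking it held 5 µg in each 100 g. The diet lasted from 8 to 12 weeks of age. The 12 groups of genotype, diet and region held 5 libraries each. Glo1 encodes glyoxalase 1, which detoxifies methylglyoxal, and vitamin B6 is a cofactor of many enzymes of amino acid and transmitter metabolism. The knockout allele, the strain and the sex of the mice are not given in the sources used here. All KO libraries carried batch number 1 and all WT libraries batch number 2 in the labels, so a difference between genotypes and a difference between batches cannot be told apart.

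Astrocytes clear glutamate and potassium from around synapses, supply neurons with glutamine and lactate, and line blood vessels with endfeet. Slc1a2 (GLT-1) and Slc1a3 (GLAST) encode the main glutamate transporters of astrocytes, and Glul encodes glutamine synthetase, which turns the captured glutamate into glutamine. Gja1 and Gjb6 encode connexin 43 and connexin 30, the gap junction proteins that couple astrocytes into networks. Aqp4 encodes the water channel of the endfeet, Gfap an intermediate filament protein that rises in reactive astrocytes, S100b a calcium-binding protein also made by some oligodendrocyte-lineage cells, and Aldh1l1 an enzyme of folate metabolism.

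Library totals lay between 7640047 and 13928265 counts, and RNA integrity numbers (RIN) between 7.6 and 9.3. Glo1 had 299 to 734 counts in the 30 WT libraries and 0 to 10 in the 30 KO libraries. The dissections were checked against marker lists by their summed RPKM (reads scaled by gene length and by depth). The 8 striatal markers, among them Penk, summed to 2811 on average in striatum, against 67.8 in prefrontal cortex and 37.9 in hippocampus. The 6 cortical markers, led by Lamp5 and Tbr1, summed to 177 in prefrontal cortex, against 53.5 and 53.2 in striatum and hippocampus. The hippocampal libraries also held markers of ependyma and choroid plexus, a list of 9 genes led over all libraries by Ttr and Clic6. In hippocampus Ttr averaged 259 RPKM and Clic6 2.81, and Clic6 was higher in striatum, at 4.35. The sum of the list ran from 9.48 to 1247 RPKM in hippocampus, with a median of 33.5. That sum was at most 3.10 in prefrontal cortex and 17.7 in striatum. The 8 hippocampal markers, led by Calb1 and Zbtb20, did not set hippocampus apart from striatum, with sums of 167 and 157 RPKM, and summed to 73.8 in prefrontal cortex. The lists for neurons (led by Snap25 and Syt1), oligodendrocytes (among them Mobp), their precursors (Tmem100 and Gpr17), microglia (among them P2ry12) and endothelium (Slco1a4 and Flt1) had no gene at 0 in any region.

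Promoters are shown for the 4 genes on which the results below turn: Gfap, which differed most between regions, Slc1a3 and Glul, which differed between genotypes in prefrontal cortex, and Gjb6, which was lowest in striatum. Each runs 5′ to 3′ along the gene from 250 bases before to 50 after the RefSeq start in GRCm38.p6, and capitals mark matches to the motifs searched.
Gfap (chr11:102897151-102897450, minus strand): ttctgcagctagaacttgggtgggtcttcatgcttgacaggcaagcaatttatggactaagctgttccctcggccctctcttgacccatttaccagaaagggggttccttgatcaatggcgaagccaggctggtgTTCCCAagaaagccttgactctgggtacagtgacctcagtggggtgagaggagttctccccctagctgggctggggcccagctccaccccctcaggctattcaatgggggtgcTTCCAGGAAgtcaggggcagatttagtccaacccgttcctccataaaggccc
Slc1a3 (chr15:8710758-8711057, minus strand): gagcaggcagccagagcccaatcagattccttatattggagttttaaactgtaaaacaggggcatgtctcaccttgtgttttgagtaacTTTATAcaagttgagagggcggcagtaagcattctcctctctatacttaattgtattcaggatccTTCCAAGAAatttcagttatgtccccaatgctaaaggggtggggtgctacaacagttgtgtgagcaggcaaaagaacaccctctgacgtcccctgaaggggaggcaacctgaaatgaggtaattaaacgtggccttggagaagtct
Glul (chr1:153899679-153899978, plus strand): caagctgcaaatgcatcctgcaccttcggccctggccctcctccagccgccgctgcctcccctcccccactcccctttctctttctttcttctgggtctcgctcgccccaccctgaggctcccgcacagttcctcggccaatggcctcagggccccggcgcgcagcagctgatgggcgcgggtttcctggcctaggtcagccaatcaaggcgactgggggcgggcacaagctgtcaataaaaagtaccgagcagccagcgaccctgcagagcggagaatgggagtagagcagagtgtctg
Gjb6 (chr14:57133562-57133861, minus strand): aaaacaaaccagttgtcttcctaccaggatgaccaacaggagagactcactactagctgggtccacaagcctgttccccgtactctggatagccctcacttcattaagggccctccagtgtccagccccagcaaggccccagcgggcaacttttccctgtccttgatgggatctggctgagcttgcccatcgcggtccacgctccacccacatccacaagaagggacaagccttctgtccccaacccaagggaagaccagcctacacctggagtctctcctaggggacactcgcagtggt
Such a promoter was at hand for 8 of the 9 genes. Both strands were searched for the letters TATAAA as a TATA box and for TTCNNNGAA as the STAT motif. The RBPJ motif was searched as TGGGAA, the AP-1 motif as TGANTCA, and the long palindromic NFI motif is given by name. The Gfap window held the STAT motif as TTCCAGGAA at position -2 and the RBPJ motif as TTCCCA at position -115, counted from the RefSeq start. That start lies 69 bases upstream of the start of transcript Gfap-201 in GENCODE. The Slc1a3 window held the STAT motif as TTCCAAGAA at position -96 and the TATA box on the minus strand as TTTATA at position -161. The Glul and Gjb6 windows held no match. Over 32851 mouse promoters of the same length, 8.30% held the STAT motif, 25.6% the RBPJ motif, 13.6% the TATA box, 7.81% the AP-1 motif and 0.0365% the NFI motif. Of the 8 promoters, 2 held the STAT motif and 3 the RBPJ motif (Gfap, Aldh1l1 and S100b), and Gja1 alone held the AP-1 motif, as TGAGTCA at position -19. A match is a run of letters and was not tested for binding.

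The question for the regions was how the 9 genes differ between prefrontal cortex, striatum and hippocampus. Hippocampus had the highest Gfap, Aqp4, Gja1 and Slc1a3, and 8 of the 9 genes were lower in striatum than in prefrontal cortex. Gfap stood apart in size: it was 5.52-fold higher in hippocampus than in prefrontal cortex and 8.51-fold higher than in striatum. Gjb6 was about as abundant in prefrontal cortex as in hippocampus and 2.00-fold lower in striatum. In these bulk samples, fewer cells of a type and less RNA per cell cannot be told apart. Region differences were tested with edgeR's quasi-likelihood test on the counts of all 60 libraries, averaged over the 4 groups of genotype and diet, with Benjamini-Hochberg adjustment over 13930 genes.

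**Figure D1:**
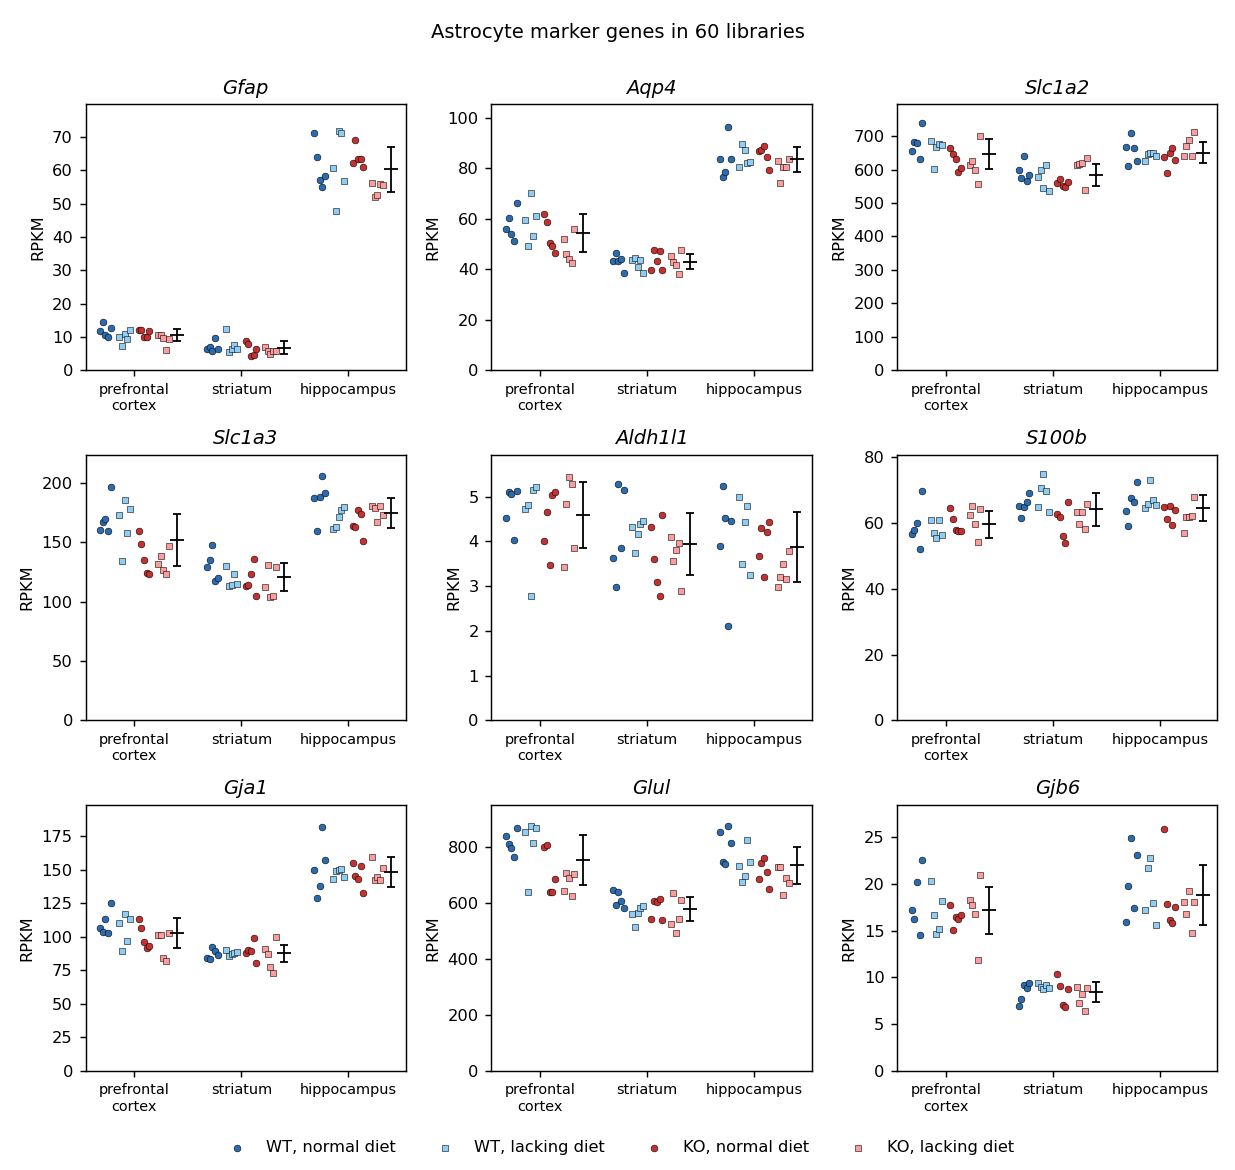
RPKM of each of the 9 genes (vertical axes, starting at 0) in the 20 libraries of each region, with colour and shape giving genotype and diet and the black bar to the right of each region giving the mean and SD of its 20 libraries. Every hippocampal Gfap value, from 47.7 to 71.9 RPKM, lies above the highest value of the other regions, 14.4, and every striatal Gjb6 value, from 6.36 to 10.4, lies below the lowest of the other regions, 11.8.

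On the RPKM scale, which allows genes to be compared per length, Glul and Slc1a2 were the most abundant of the 9 in every region. Their mean levels ranked 9th and 12th among all genes in prefrontal cortex, 14th and 13th in striatum, and 10th and 12th in hippocampus. Glul was above Slc1a2 in 20 of 20 libraries of prefrontal cortex and 18 of 20 of hippocampus, whereas in striatum Slc1a2 was above Glul in 8 of 20, so these neighbours did not separate there. Slc1a3 and Gja1 followed in that order in every library. S100b came next in striatum in every library and in prefrontal cortex, where it was above Aqp4 in 17 of 20 libraries. In hippocampus Aqp4 was above S100b in 20 of 20 libraries, and S100b was above Gfap in 15 of 20. Gjb6 was above Gfap in 20 of 20 libraries of prefrontal cortex and 18 of 20 of striatum, and below it in every hippocampal library. Aldh1l1 was the lowest of the 9 in every library.

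Among the genes of glutamate uptake, Slc1a3 (15:8634124-8710807, GRCm38.p6) showed a graded profile. Its lowest, median and highest levels were 124, 153 and 196 RPKM in prefrontal cortex, 104, 119 and 148 in striatum, and 152, 176 and 206 in hippocampus. Every striatal library was below every hippocampal one, and prefrontal cortex overlapped both. Against striatum, the log2 fold change of hippocampus was 0.45 ± 0.05 (SE; adjusted p = 3.8e-13, edgeR), with 20 of 20 mice higher in hippocampus. Against prefrontal cortex, striatum was lower by a log2 fold change of -0.30 ± 0.05 (adjusted p = 5.2e-08, edgeR; 19 of 20 mice). Hippocampus was above prefrontal cortex by 0.15 ± 0.05 (adjusted p = 0.00388, edgeR), in 16 of 20 mice. That call was lost with RIN as a covariate (adjusted p = 0.0707, edgeR). In WT mice on the normal diet alone, with 5 mice per region, the log2 fold change was 0.07 and did not pass (adjusted p = 0.572, edgeR).

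The other transporter gene, Slc1a2 (2:102658239-102790784), varied little. Its level ran from 558 to 740 RPKM with a median of 652 in prefrontal cortex, from 536 to 642 with a median of 577 in striatum, and from 591 to 714 with a median of 649 in hippocampus. The ranges of the 3 regions overlapped widely. Striatum was below prefrontal cortex by a log2 fold change of -0.13 ± 0.03 (adjusted p = 0.000353, edgeR; 18 of 20 mice). Hippocampus was above striatum by 0.08 ± 0.03 (adjusted p = 0.0269, edgeR). That call was lost with RIN as a covariate (adjusted p = 0.142, edgeR). It was also lost without mouse 259 (adjusted p = 0.0632, edgeR) and without mouse 286 (adjusted p = 0.0508, edgeR). In WT mice on the normal diet alone, the log2 fold change was again 0.08 but did not pass (adjusted p = 0.356, edgeR). Without TMM factors, 20 of 20 mice were higher in hippocampus, and on that scale limma on log2(RPKM + 1) gave a larger log2 fold change of 0.16. Between hippocampus and prefrontal cortex the log2 fold change was -0.05, with a 95% interval from -0.11 to 0.01 (adjusted p = 0.183, edgeR), and it was 0.01 without TMM factors. With RIN as a covariate it was -0.08 and passed (adjusted p = 0.0473, edgeR).

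Glul (1:153899929-153909723), which acts on the glutamate that both transporters bring in, was lowest in striatum. Its lowest, median and highest levels were 626, 781 and 876 RPKM in prefrontal cortex, 494, 586 and 647 in striatum, and 631, 732 and 878 in hippocampus. Striatal values overlapped the other regions only at the lower end of those regions. Striatum was below prefrontal cortex by -0.35 ± 0.04 on the log2 scale (adjusted p = 1.1e-11, edgeR), and hippocampus was above striatum by 0.26 ± 0.04 (adjusted p = 5.9e-08, edgeR), in 20 of 20 mice each. Hippocampus was below prefrontal cortex by -0.09 ± 0.04 (adjusted p = 0.0421, edgeR) in 11 of 20 mice. That small difference did not pass with DESeq2 (adjusted p = 0.0577) or without TMM scaling factors (adjusted p = 0.437, edgeR). In WT mice on the normal diet alone it was -0.08 and did not pass (adjusted p = 0.438, edgeR). Nor did it pass without mouse 225, 241, 259, 267, 268, 272, 273, 283, 317, 325, 390 or 452 (adjusted p up to 0.118, edgeR).

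The connexin genes had different profiles. Gja1 (10:56377300-56390419) ran from 82.0 to 125 RPKM with a median of 103 in prefrontal cortex, from 73.1 to 99.6 with a median of 87.8 in striatum, and from 129 to 181 with a median of 147 in hippocampus. The hippocampal range lay above both others without overlap. Its log2 fold changes were 0.47 ± 0.04 for hippocampus against prefrontal cortex (adjusted p = 2.5e-14, edgeR) and 0.68 ± 0.04 against striatum (adjusted p = 8.6e-21, edgeR), with 20 of 20 mice higher in each. Striatum was below prefrontal cortex by -0.20 ± 0.04 (adjusted p = 6.2e-05, edgeR; 19 of 20 mice).

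For Gjb6 (14:57123301-57133611) it was striatum that lay apart. Its lowest, median and highest levels were 11.8, 16.8 and 22.6 RPKM in prefrontal cortex, 6.36, 8.83 and 10.4 in striatum, and 14.8, 17.9 and 25.9 in hippocampus. No striatal library reached the lowest library of the other regions. Striatum was below prefrontal cortex by a log2 fold change of -0.999 ± 0.07 (adjusted p = 2.6e-20, edgeR), and hippocampus was above striatum by 1.07 ± 0.07 (adjusted p = 1.2e-21, edgeR), in 20 of 20 mice each. Between hippocampus and prefrontal cortex the log2 fold change was 0.07, with a 95% interval from -0.06 to 0.20 (adjusted p = 0.355, edgeR).

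The endfoot water channel gene Aqp4 followed the order of Gja1. It ran from 42.4 to 70.1 RPKM with a median of 53.5 in prefrontal cortex, from 38.0 to 47.7 with a median of 43.1 in striatum, and from 74.2 to 96.3 with a median of 83.1 in hippocampus. The hippocampal libraries lay above all others, while striatum and prefrontal cortex overlapped. The log2 fold changes were 0.56 ± 0.05 for hippocampus against prefrontal cortex (adjusted p = 4.8e-16, edgeR), 0.88 ± 0.05 against striatum (adjusted p = 1.7e-24, edgeR) and -0.31 ± 0.05 for striatum against prefrontal cortex (adjusted p = 5.6e-08, edgeR), each in 20 of 20 mice. A long noncoding gene, A830021F12Rik, overlaps Aqp4 in the annotation, and the strand setting of the counting is not given in the sources used here.

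Gfap (11:102887336-102897200), the filament gene, had the widest spread between regions. Its lowest, median and highest levels were 6.16, 10.6 and 14.4 RPKM in prefrontal cortex, 4.36, 6.30 and 12.5 in striatum, and 47.7, 59.5 and 71.9 in hippocampus. Hippocampus was apart from both other regions, which overlapped each other. The log2 fold changes were 2.46 ± 0.08 for hippocampus against prefrontal cortex (adjusted p = 2.8e-36, edgeR), 3.09 ± 0.08 against striatum (adjusted p = 4.1e-41, edgeR) and -0.62 ± 0.08 for striatum against prefrontal cortex (adjusted p = 2.1e-10, edgeR; 19 of 20 mice). Gfap was 52.2 RPKM in the hippocampal library with the lowest sum of ependymal and choroid plexus markers (9.48 RPKM, mouse 244) and 62.3 RPKM in that with the highest (1247 RPKM, mouse 267); the part of these tissues in the regional difference was not tested.

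S100b (10:76253836-76261319) was nearly flat across regions. Its lowest, median and highest levels were 52.1, 58.8 and 69.8 RPKM in prefrontal cortex, 54.1, 64.2 and 75.1 in striatum, and 57.2, 64.9 and 73.0 in hippocampus. The 3 ranges overlapped almost throughout. It was the only gene of the 9 that was higher in striatum than in prefrontal cortex. The log2 fold change was 0.13 ± 0.03 (adjusted p = 0.000545, edgeR), with 15 of 20 mice higher in striatum. In WT mice on the normal diet alone, with 5 mice per region, it was 0.15 and did not pass (adjusted p = 0.161, edgeR). The summed RPKM of the 11 oligodendrocyte markers was 1363 ± 122 (SD, n = 20) in striatum and 522 ± 90.1 in prefrontal cortex; its part in the S100b difference was not tested. For hippocampus against prefrontal cortex the S100b log2 fold change was 0.06, with a 95% interval from -0.01 to 0.12 (adjusted p = 0.138, edgeR), which passed without TMM factors (0.12, adjusted p = 0.00148; 18 of 20 mice higher on that scale). For hippocampus against striatum it was -0.07 (adjusted p = 0.0522, edgeR), which turned to 0.01 without TMM factors (adjusted p = 0.792), and with the mouse as a block it passed at the same log2 fold change (adjusted p = 0.0374). It also passed with RIN as a covariate (-0.08, adjusted p = 0.0336) and when mouse 259 (adjusted p = 0.0365), 317 (0.0304) or 339 (0.043) was left out.

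Aldh1l1 (6:90550768-90599171) was the least abundant, with 88 to 292 counts per library. It ran from 2.77 to 5.43 RPKM with a median of 4.81 in prefrontal cortex, from 2.78 to 5.28 with a median of 3.90 in striatum, and from 2.11 to 5.24 with a median of 3.84 in hippocampus. The regions overlapped nearly completely. It was lower than in prefrontal cortex by a log2 fold change of -0.20 ± 0.07 in striatum (adjusted p = 0.0166, edgeR; 15 of 20 mice) and of -0.30 ± 0.07 in hippocampus (adjusted p = 0.000417, edgeR; 17 of 20 mice). In WT mice on the normal diet alone, with 5 mice per region, neither passed (adjusted p = 0.386 and 0.183, edgeR). The log2 fold changes there were -0.19 and -0.30. Hippocampus against striatum gave -0.10, with a 95% interval from -0.25 to 0.04 (adjusted p = 0.219, edgeR). Of the 75-base stretches of its transcripts, 8.30% also occur in Gm15756 or Gm45901, so its counts are the least certain of the 9.

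By count, 6 of the 9 genes passed between hippocampus and prefrontal cortex (4 higher, 2 lower), where 59.3% of all genes tested passed (30.2% higher and 29.1% lower). Between hippocampus and striatum 7 passed, all higher in hippocampus, where 66.4% of all genes passed and 32.9% were higher. Between striatum and prefrontal cortex all 9 passed, 8 of them lower in striatum, where 69.9% of all genes passed and 34% were lower. The median log2 fold change of the 9 was 0.07, 0.45 and -0.30 in these comparisons, and that of all genes tested was 0.01, -0.01 and 0.01. With a background this high, the number of calls says little about the 9 genes, and their sizes differed widely. In WT mice on the normal diet alone, 5 per region in place of 20, 3 of the 9 passed between hippocampus and prefrontal cortex. The share of all genes that passed in that smaller subset is not reported here.

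Other genes enriched in astrocytes, a list of 40 that does not include the 9, gave 22 higher and 8 lower in hippocampus than in prefrontal cortex, beside 30.2% higher and 29.1% lower over all genes. In WT mice on the normal diet alone, 5 per region in place of 20, the 30 called genes became 16. The share of all genes called in that smaller subset is not reported here. Against striatum 30 were higher in hippocampus and 4 lower, and striatum had 8 higher and 19 lower than prefrontal cortex (17 in all in WT mice on the normal diet alone), where 66.4% and 69.9% of all genes passed. The median log2 fold changes of the 40 were 0.19, 0.32 and -0.03. The genes with the smallest p-values went in both directions. Agt (angiotensinogen) was 6.61-fold higher in hippocampus than in prefrontal cortex, with mean levels of 7.68 and 1.11 RPKM, and the sodium bicarbonate cotransporter gene Slc4a4 was 1.53-fold higher (adjusted p = 6.6e-26 and 8.0e-23, edgeR). Grm3, a metabotropic glutamate receptor gene, was 2.08-fold lower in hippocampus than in prefrontal cortex, and Dio2, which activates thyroid hormone, was 1.66-fold lower (adjusted p = 1.5e-33 and 3.4e-18, edgeR).

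Some of these genes set striatum apart in the direction opposite to most of the 9. Id4, a regulator of differentiation, averaged 140 RPKM in striatum, 33.4 in prefrontal cortex and 46.1 in hippocampus, and was 4.27-fold higher in striatum than in prefrontal cortex (adjusted p = 3.1e-34, edgeR). Slc4a4 was 2.46-fold higher in striatum than in prefrontal cortex (adjusted p = 5.9e-39, edgeR). The mitochondrial glutamate carrier gene Slc25a18 went with the 9: it averaged 1.93 RPKM in striatum, 11.6 in prefrontal cortex and 10.6 in hippocampus, and was 5.90-fold lower in striatum than in prefrontal cortex (adjusted p = 5.0e-36, edgeR). Sparcl1, which encodes the secreted matrix protein hevin, was 1.66-fold lower in striatum than in prefrontal cortex, at 461 and 778 RPKM (adjusted p = 3.1e-34, edgeR).

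Of 31 genes known to rise in reactive astrocytes, 23 passed the filter on low counts in the fit of all regions, among them 14 higher and 1 lower in hippocampus than in prefrontal cortex, where 59.3% of all genes passed. Against striatum 15 were higher in hippocampus and 2 lower, and striatum had 6 higher and 8 lower than prefrontal cortex, where 66.4% and 69.9% of all genes passed. In WT mice on the normal diet alone, 5 per region in place of 20, the genes called in these comparisons were 9, 10 and 8. The share of all genes called in that smaller subset is not reported here. Serpina3n, a secreted protease inhibitor gene, averaged 15.5 RPKM in hippocampus, 4.44 in prefrontal cortex and 1.45 in striatum. Its log2 fold change was 1.74 ± 0.09 for hippocampus against prefrontal cortex (adjusted p = 5.1e-26, edgeR) and 3.32 ± 0.10 against striatum (adjusted p = 1.2e-37, edgeR). Amigo2, a cell adhesion gene also known as a marker of hippocampal CA2 and CA3 neurons, was 2.63-fold higher in hippocampus than in prefrontal cortex, and Fkbp5, a target of glucocorticoids, was 2.41-fold higher (adjusted p = 2.9e-28 and 5.2e-30, edgeR). Ptgs2, which encodes cyclooxygenase 2 and is also made by neurons, was 7.01-fold higher in hippocampus than in striatum (adjusted p = 4.1e-32, edgeR). Several genes of this list are made by other cells too, and their part in these differences was not tested.

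The question for the genotypes was whether the 9 genes respond to the loss of Glo1. In prefrontal cortex, Slc1a3 and Glul were lower in KO than in WT mice over both diets: the mean RPKM of Slc1a3 fell by 19.2% and that of Glul fell by 14.7%. The other 7 genes did not pass in prefrontal cortex, and none of the 9 passed in striatum or hippocampus. In prefrontal cortex 89 of 13223 genes passed, or 0.673% (0.121% higher and 0.552% lower in KO).

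On the normal diet, the WT mice 272, 273, 283, 286 and 317 had 160, 167, 170, 159 and 196 RPKM of Slc1a3 in prefrontal cortex. The KO mice 267, 268, 368, 381 and 390 on that diet had 159, 149, 135, 125 and 124 RPKM. On the lacking diet, the WT mice 225, 226, 241, 246 and 259 had 173, 135, 185, 158 and 178 RPKM, and the KO mice 242, 244, 325, 339 and 452 had 132, 138, 127, 124 and 147 RPKM. On the normal diet the groups did not overlap, by a margin under 1 RPKM, and on the lacking diet they overlapped through the WT mouse 226.

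Over both diets, Slc1a3 averaged 168 ± 17.0 RPKM in WT and 136 ± 12.3 in KO mice (SD, n = 10 each). All 10 KO mice were below the WT median, and 8 of the 10 WT mice were above the highest KO mouse. The log2 fold change was -0.33 ± 0.06 (SE; adjusted p = 0.00678, edgeR). It passed in each of the 20 fits that left out 1 mouse (adjusted p from 0.00041 to 0.0213). On the separate diets, with 5 mice against 5, it was -0.31 ± 0.09 on the normal diet (adjusted p = 0.455, edgeR) and -0.34 ± 0.09 on the lacking diet (adjusted p = 0.0975, edgeR).

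Glul in prefrontal cortex was 842, 814, 797, 766 and 871 RPKM in the WT mice 272, 273, 283, 286 and 317 on the normal diet. The KO mice 267, 268, 368, 381 and 390 had 799.9, 807, 641, 638 and 686 RPKM. On the lacking diet, the WT mice 225, 226, 241, 246 and 259 had 856, 641, 876, 816 and 868 RPKM, and the KO mice 242, 244, 325, 339 and 452 had 644, 708, 691, 626 and 706 RPKM. The WT mouse 226 lay among the KO mice, so that only 3 KO mice were below the lowest WT mouse. The KO mice 267 and 268 lay among the other WT mice.

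Over both diets, Glul averaged 814 ± 70.8 RPKM in WT and 695 ± 64.5 in KO mice (SD, n = 10 each). All 10 KO mice were below the WT median, and 7 of 10 WT mice were above the highest KO mouse. The log2 fold change was -0.25 ± 0.06 (SE; adjusted p = 0.0335, edgeR). The call was near the threshold: it was lost with limma on log2(RPKM + 1) (adjusted p = 0.101) and when any of the mice 225, 241, 242, 246, 259, 272, 317, 325, 339, 368, 381 and 390 was left out (adjusted p up to 0.0856). Of the 75-base stretches of Glul transcripts, 6.63% also occur elsewhere, among others in the pseudogene Glns-ps1.

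**Figure D2:**
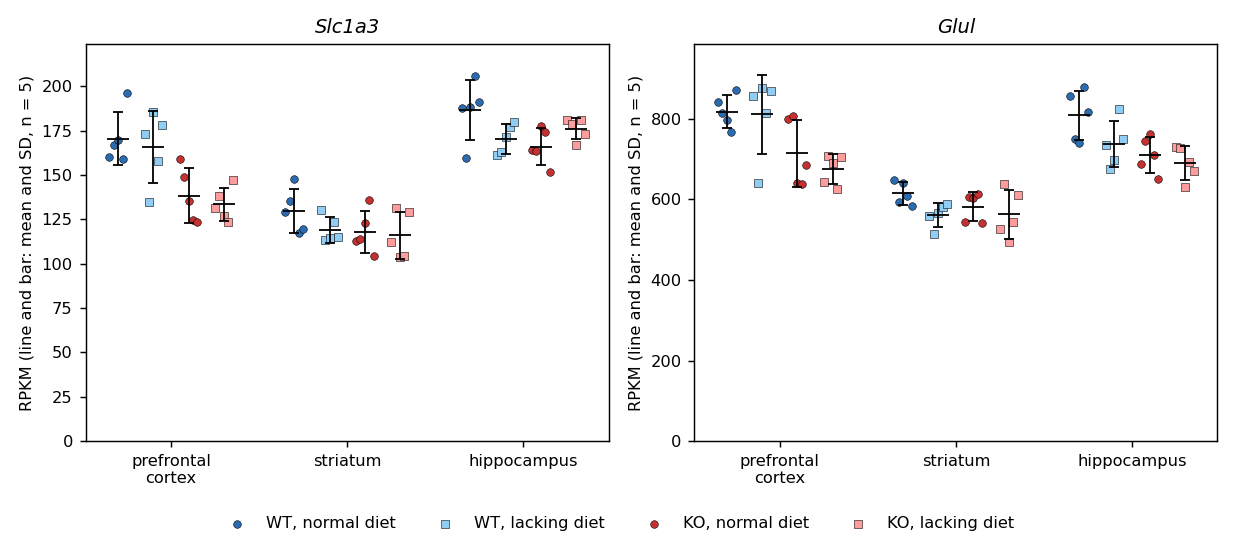
RPKM of Slc1a3 (left) and Glul (right), with vertical axes starting at 0, in the 5 libraries of each genotype and diet in each region; lines and bars give the mean and SD of each group. In prefrontal cortex the KO groups average 138 and 134 RPKM of Slc1a3 against 171 and 166 in the WT groups (normal and lacking diet). In hippocampus the lowest Glul value of WT mice on the normal diet, 741, lies above the highest of KO mice on the lacking diet, 729. WT mice on the lacking diet (677 to 825) and KO mice on the normal diet (651 to 762) overlap both these groups. Glul did not pass between genotypes or diets in hippocampus.

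The other 7 genes had the following log2 fold changes of KO against WT in prefrontal cortex over both diets. Aqp4 had -0.22 ± 0.07 (adjusted p = 0.171, edgeR), Gja1 -0.17 ± 0.06 (adjusted p = 0.225, edgeR) and Slc1a2 -0.12 ± 0.04 (adjusted p = 0.222, edgeR). The means of Aqp4 were 58.0 ± 6.69 RPKM in WT and 50.6 ± 6.41 in KO mice, with 8 of 10 KO mice below the WT median. Gfap had -0.11, with a 95% interval from -0.29 to 0.07, Gjb6 -0.08 (from -0.25 to 0.09), Aldh1l1 -0.07 (from -0.26 to 0.12) and S100b 0.02 (from -0.08 to 0.13). With these, 8 of the 9 values were negative, and the median was -0.12, beside a median of 0.0008 over all genes tested.

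Several marker lists of other cells, though not all lists, also had lower mean sums in the same KO libraries. The summed RPKM of 14 neuronal markers averaged 2591 ± 124 in KO and 2707 ± 97.7 in WT mice (SD, n = 10 each), ranging from 2442 to 2810 and from 2522 to 2836, with 10 of 14 log2 fold changes negative and 0 past the threshold. The 10 microglial markers summed to 166 ± 8.05 in KO and 178 ± 6.99 in WT mice, ranging from 156 to 180 and from 167 to 188. Among them only P2ry12, a purinergic receptor gene of microglia, passed, lower in KO by a log2 fold change of -0.38 (adjusted p = 0.0172, edgeR). P2ry12 averaged 45.9 RPKM over all libraries of prefrontal cortex, of a mean microglial sum of 172. How much of the lower sum came from this gene alone was not tested. The 11 oligodendrocyte markers summed to 502 ± 93.4 in KO and 543 ± 86.5 in WT mice, ranging from 360 to 636 and from 454 to 714. The 6 markers of their precursors summed to 31.9 ± 1.93 in KO and 34.4 ± 3.29 in WT mice. The 9 endothelial markers were nearly level, at 44.1 ± 4.35 in KO and 45.0 ± 3.84 in WT mice. The 6 cortical markers went the other way, at 178 ± 8.67 in KO and 175 ± 8.58 in WT mice. Library totals of prefrontal cortex ranged from 9578705 to 13911503 counts in KO and from 8704715 to 11485734 in WT mice, and RIN averaged 8.46 ± 0.481 and 8.33 ± 0.330. With RIN as a covariate, Slc1a3 and Glul had adjusted p = 0.00113 and 0.0162 (edgeR). The part of the marker sums and of depth in the lower Slc1a3 and Glul was not tested.

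Among the 40 other astrocyte genes, 1 passed in prefrontal cortex, Mt2, a metallothionein gene, with a log2 fold change of -0.62 ± 0.15 (adjusted p = 0.0492, edgeR) at a mean level of 1.95 RPKM. Of the 40 values 33 were negative, with a median of -0.12. Of the 20 reactive astrocyte genes that passed the filter there, 1 passed the test, Vim, which encodes vimentin and is also made by endothelial cells, with -0.41 ± 0.10 (adjusted p = 0.0376, edgeR). Among the 20 fits that left out 1 mouse, Mt2 passed only in those without mouse 226, 241, 244, 267, 268 or 273. Vim passed there only without mouse 226, 244, 246, 267, 268, 283, 286 or 452. Both were lost with limma and without TMM factors, and Mt2 also at a mean of at least 1 CPM.

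In striatum, 27 of 13311 genes, or 0.203%, passed between KO and WT over both diets, and none of the 9 genes did. Slc1a3 had -0.04, with a 95% interval from -0.18 to 0.09, and Glul 0.00 (from -0.10 to 0.11). Gfap had the largest estimate, -0.23 (from -0.50 to 0.05; adjusted p = 0.74, edgeR), and 4 of the 9 values were positive. In hippocampus 22 of 13393 genes, or 0.164%, passed, and none of the 9. Glul had -0.14 ± 0.05 (adjusted p = 0.812, edgeR), with 9 of 10 KO mice below the WT median, and Slc1a3 -0.06 (from -0.16 to 0.04). No member of the astrocyte lists passed in either region. At an unadjusted p under 0.05 there were 0 of the 9 genes in striatum, beside 769 of all 13311 tested. In hippocampus there was 1 of the 9, beside 568 of all 13393 tested.

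**Figure D3:**
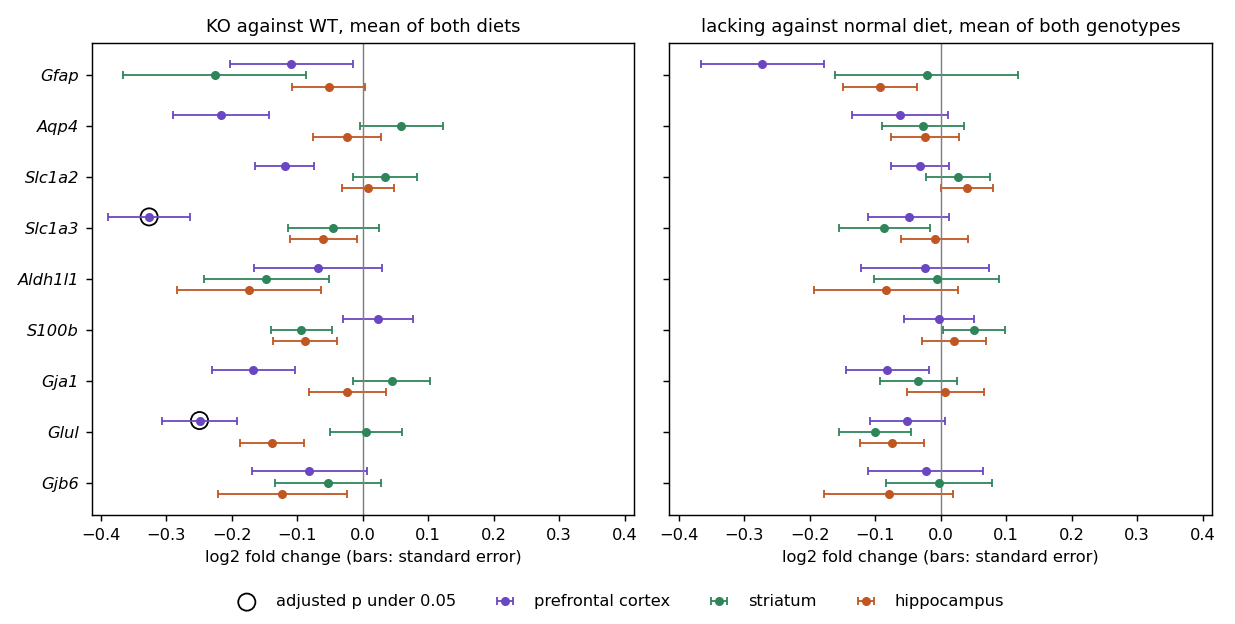
Log2 fold changes (horizontal axes) of KO against WT mice, averaged over both diets (left), and of the lacking against the normal diet, averaged over both genotypes (right), for the 9 genes in the 3 regions; points are edgeR estimates, bars standard errors, and black circles an adjusted p under 0.05. The 2 circled points are Slc1a3 (-0.33) and Glul (-0.25) in prefrontal cortex, and no point is circled for the diet.

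The genotype difference was also compared between regions in the fit of all 60 libraries. For striatum minus prefrontal cortex it differed by 0.28 ± 0.09 on the log2 scale for Slc1a3 and 0.26 ± 0.08 for Glul, each with an adjusted p of 0.499 in edgeR, where 0 of 13930 genes passed and 1279 had an unadjusted p under 0.05. The genes with an unadjusted p under 0.05 were 5 of the 9: these, with unadjusted p = 0.00299 and 0.00197, and Aqp4, Gja1 and Slc1a2. For hippocampus minus prefrontal cortex it was 0.26 ± 0.09 for Slc1a3 (adjusted p = 0.799, edgeR) and 0.10 ± 0.08 for Glul (adjusted p = 0.908, edgeR), where 1 gene, or 0.00718%, passed. A genotype difference particular to prefrontal cortex was therefore not shown.

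Both changes at once were seen by setting KO mice on the lacking diet beside WT mice on the normal one. In prefrontal cortex 37 genes, or 0.28%, passed and none of the 9 did: Slc1a3 had -0.38 ± 0.09 (adjusted p = 0.0559, edgeR) and Glul -0.30 ± 0.08 (adjusted p = 0.0939, edgeR). These are near the threshold, and 1 or both passed with 5 of the alternative settings given below. Gfap had -0.38 ± 0.13 (adjusted p = 0.208, edgeR), with group means of 11.8 ± 1.78 RPKM in these WT mice and 9.23 ± 1.81 in these KO mice. No member of the 9 passed in striatum or hippocampus, where 0.0826% and 0.0149% of all genes did. The comparisons of KO with WT on 1 diet called none of the 9 genes in any region, where 0.121%, 0.0601% and 0.0299% of all genes passed on the normal diet and 0.234%, 0.128% and 0.0672% on the lacking diet (prefrontal cortex, striatum, hippocampus).

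The question for the diet was whether the lack of vitamin B6 changes the 9 genes. No gene of the whole table, and so none of the 9, passed for the diet in either genotype, over both genotypes or in the interaction of genotype and diet, in any region (0% of genes in each). In the comparison over both genotypes, 434 genes in prefrontal cortex, 407 in striatum and 288 in hippocampus had an unadjusted p under 0.05, and of the 9 genes only Gfap in prefrontal cortex did. On the normal diet Gfap there was 11.6, 14.4, 10.6, 9.85 and 12.7 RPKM in the WT mice 272, 273, 283, 286 and 317, and 12.0, 11.9, 9.86, 10.05 and 11.7 in the KO mice 267, 268, 368, 381 and 390. On the lacking diet it was 9.89, 7.18, 10.7, 9.25 and 12.1 RPKM in the WT mice 225, 226, 241, 246 and 259, and 10.6, 10.5, 9.55, 6.16 and 9.27 in the KO mice 242, 244, 325, 339 and 452. The diets overlapped in both genotypes. The log2 fold change was -0.27 ± 0.09 (SE; adjusted p = 0.9998, edgeR), and -0.26 in WT and -0.28 in KO mice taken apart.

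In striatum and hippocampus the Gfap estimates were -0.02 and -0.09. For the other 8 genes, the diet's log2 fold changes over both genotypes lay between -0.10 (Glul in striatum) and 0.05 (S100b in striatum). The widest 95% interval of these was that of Aldh1l1 in hippocampus, from -0.30 to 0.13. All 9 estimates were negative in prefrontal cortex, with a median of -0.05, beside a median of 0.0002 over all genes. In hippocampus the Gfap levels of KO mice did not overlap between diets, at 63.9 ± 3.15 RPKM on the normal and 54.5 ± 1.94 on the lacking diet (SD, n = 5 each), but the test did not pass (log2 fold change -0.18, adjusted p = 0.719, edgeR). In the interaction, Slc1a3 in hippocampus had 0.28 ± 0.10 (adjusted p = 0.514, edgeR), where 1265 genes had an unadjusted p under 0.05. Its group means there were 187 ± 16.9 RPKM in WT and 166 ± 10.2 in KO mice on the normal diet, and 170 ± 8.42 and 176 ± 6.04 on the lacking diet.

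The 9 genes differed in how much they varied between mice of a group. The biological coefficient of variation estimated by edgeR was 0.161 for Gfap, 0.149 for Aldh1l1 and 0.137 for Gjb6, above the median of 0.130 over 13930 genes. It was 0.0691 for S100b and 0.0734 for Slc1a2, with 4.78% and 7.47% of all genes below them. Slc1a3, Aqp4, Gja1 and Glul lay between 0.0901 and 0.105.

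To see whether the genes moved together from mouse to mouse, each library's log2 CPM was taken as its deviation from the mean of its group, and genes were correlated over the 20 mice of a region. In prefrontal cortex 28 of the 36 pairs were positive, with a median Pearson's r of 0.64, and 23 passed at an adjusted p under 0.05 by permutation within groups, adjusted over 135 relations. By Spearman's rho 20 passed. In striatum 20 pairs were positive, with a median r of 0.11, and 9 passed by r and 8 by rho. In hippocampus 22 pairs were positive, with a median of 0.16, and 9 passed by r and 3 by rho. The libraries share depth and cell composition among all genes, and the difference between regions in these correlations was not tested.

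Slc1a3, Gja1, Aqp4 and Glul correlated positively in each of their 6 pairs in every region, but not every pair passed. Slc1a3 and Gja1 had r = 0.93 and rho = 0.95 in prefrontal cortex (permutation p = 1e-05, the smallest these permutations can give; adjusted p = 0.000337 and 0.00045), and r = 0.91 without the 2 libraries farthest from the median of Slc1a3. In striatum their r was 0.81 (rho 0.82, adjusted p = 0.00196 and 0.00461 by permutation). In hippocampus r was 0.80 (adjusted p = 0.0273 by permutation) but rho 0.49 (adjusted p = 0.131), and r fell to 0.47 without the 2 farthest libraries, so that this relation rested on them. Slc1a3 and Glul had r = 0.88, 0.83 and 0.78 in prefrontal cortex, striatum and hippocampus, with rho of 0.84, 0.84 and 0.77 (adjusted p from 0.00101 to 0.00489 by permutation). Without the 2 farthest libraries those r were 0.83, 0.78 and 0.64. Aqp4 and Gja1 had r = 0.89, 0.78 and 0.89, with rho of 0.91, 0.72 and 0.76 (adjusted p from 0.00054 to 0.0126 by permutation), and 0.87, 0.74 and 0.79 without the 2 farthest.

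The remaining pairs of these 4 genes passed in prefrontal cortex by both measures and less clearly elsewhere. Aqp4 and Slc1a3 had r = 0.92, 0.73 and 0.72 in prefrontal cortex, striatum and hippocampus (adjusted p = 0.000337, 0.00846 and 0.0447 by permutation), and did not pass by rho in hippocampus (0.42, adjusted p = 0.18). Gja1 and Glul had r = 0.78, 0.70 and 0.65 (adjusted p = 0.00239, 0.0509 and 0.0434 by permutation), and did not pass by rho in striatum (adjusted p = 0.0666) or hippocampus (adjusted p = 0.117). Aqp4 and Glul had r = 0.78, 0.61 and 0.52 (adjusted p = 0.00262, 0.054 and 0.146 by permutation), and passed in neither striatum nor hippocampus by either measure. Without the 2 farthest libraries, r in prefrontal cortex, striatum and hippocampus was 0.90, 0.67 and 0.67 for Aqp4 and Slc1a3, 0.70, 0.66 and 0.34 for Gja1 and Glul, and 0.76, 0.54 and 0.41 for Aqp4 and Glul.

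Gfap went with this group in prefrontal cortex. It passed there with 5 of the other 8 genes and with none in striatum or hippocampus, where its median r was -0.07 and -0.21. With Glul its r was 0.70 in prefrontal cortex (rho 0.65, adjusted p = 0.00252 and 0.0066 by permutation; 0.57 without the 2 farthest libraries), -0.21 in striatum and 0.18 in hippocampus. Whether the regions differ in this was not tested.

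Aldh1l1 went the other way from most of the group. It was negative with all 8 other genes in prefrontal cortex, which made up every negative pair there, although no pair of it passed in that region. In striatum it passed with Aqp4 and, by r, with Glul. With Aqp4 its r was -0.73 in striatum (rho -0.71, adjusted p = 0.0074 and 0.0119 by permutation) and -0.80 in hippocampus (rho -0.69, adjusted p = 0.0168 and 0.0139 by permutation), and -0.72 and -0.62 without the 2 libraries farthest from the median of Aqp4. In hippocampus it was also negative with Slc1a3, Gja1 and Glul at an adjusted p of 0.0265, 0.0317 and 0.0444 by permutation of r, but none of these passed by rho (adjusted p = 0.0982, 0.0807 and 0.079).

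**Figure D4:**
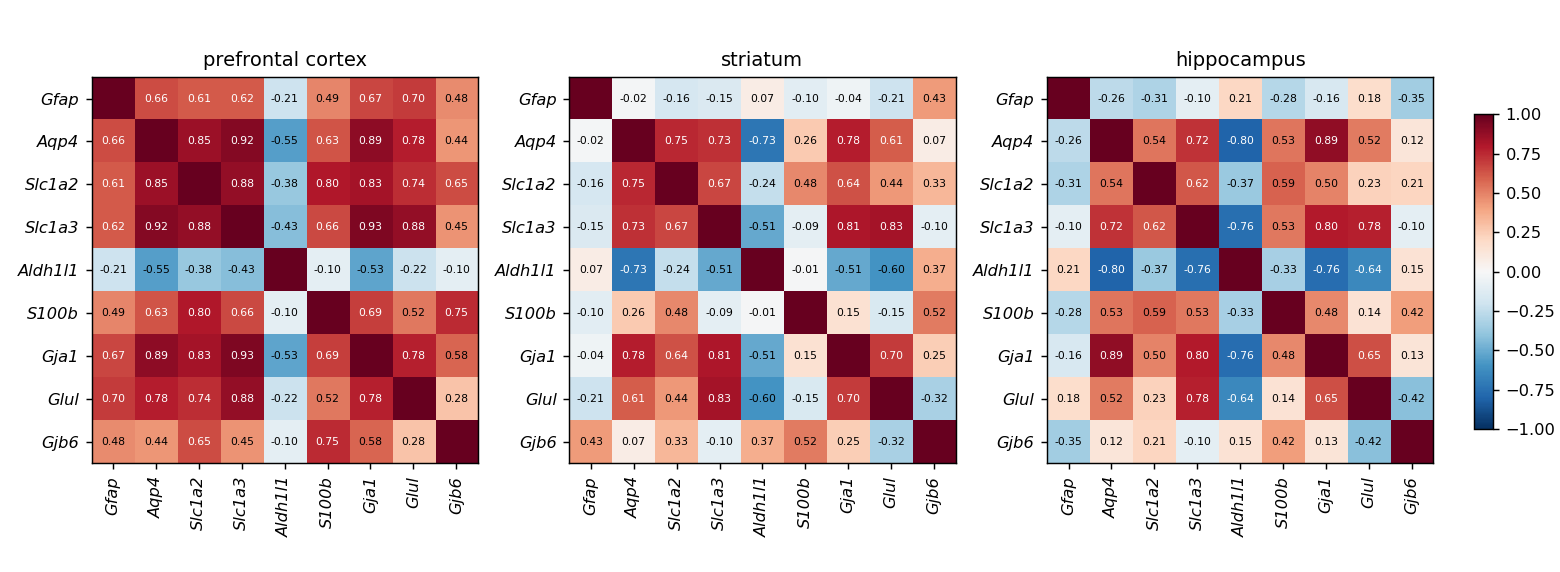
Pearson's r between each pair of the 9 genes (rows and columns) over the 20 mice of each region, computed on deviations from group means; red is positive, blue negative, and the colour bar runs from -1 to 1. The block of red around Aqp4, Slc1a3, Gja1 and Glul appears in each region, and the Aldh1l1 row is mostly blue. Gfap is red in prefrontal cortex except with Aldh1l1 (-0.21). It is mostly paler in the others, where its r with Gjb6 is 0.43 in striatum and -0.35 in hippocampus.

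Within a mouse, the level in one region said little about the level in another. Of 27 relations of a gene with itself between regions, 1 passed: Gjb6 in striatum and hippocampus, with r = 0.70 and rho = 0.71 over 20 mice (adjusted p = 0.0027 and 0.00332 by permutation), and 0.62 without the 2 farthest libraries. Its r was 0.56 between prefrontal cortex and striatum (adjusted p = 0.0798 by permutation) and 0.33 between prefrontal cortex and hippocampus.

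As a description over the 60 libraries, which share depth and composition among all genes, the deviations of 13921 genes were correlated with the mean deviation of the 9. The genes most like it were Sepp1, which encodes selenoprotein P (r = 0.84), Zfp36l1, an RNA-binding protein that destabilises transcripts (0.75), Crot, a peroxisomal carnitine acyltransferase (0.71), the growth factor gene Fgf1 (0.70) and the Src-family kinase gene Yes1 (0.68). The gene most like each of the 9 was Tmem47 for Aqp4 (0.87) and for Gja1 (0.85), Fam213a for Slc1a3 (0.89) and for Glul (0.85), Lrrc58 for Slc1a2 (0.85), Hibadh for Gjb6 (0.76), Crot for S100b (0.72) and the complement gene C4b for Gfap (0.60). Aldh1l1, whose deviations opposed those of the group, was most like Hyou1, a chaperone of the endoplasmic reticulum (0.80).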

How the data were processed

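RNA from 3 brain regions of 20 mice was sequenced as single-end reads of 75 bases after poly(A) selection from 2 µg of total RNA, per the labels' protocols. The deposited tables give a count and an RPKM value for each of 21999 genes in 60 libraries. The submitters' processing notes name STAR 2.7.1a, HTSeq 0.9.1 and mm10, and the counting settings are not given in the sources used here. Counts were tested with edgeR 4.0.16 (R 4.3.3), with TMM factors, filterByExpr (minimum count 10, minimum total 15) and Benjamini-Hochberg adjustment at 0.05, in 1 fit of 20 libraries per region and 1 fit of all 60. RPKM values served as levels. DESeq2 1.42.0 and limma 3.58.1 on log2(RPKM + 1) or log2(RPKM + 0.1) were alternatives, with others for scaling, filter, RIN, samples and the mouse as a block. In all, 3 counts corresponded to 0.215 to 0.393 CPM.

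Named beside the 9 genes were, per comparison, up to 4 genes of each astrocyte list with the smallest p past the threshold, the 5 genes most like the 9 and 1 per gene, and the 2 most abundant genes of each other marker list. Some genes of these lists are not reported here. The genes and lists were chosen with earlier results of these data known. Same-numbered libraries came from the same mouse, per the labels; their deviations from group means had a mean correlation of 0.0468 over 60 pairs, against -0.0111 over 240 pairs of different mice of a group. Correlations used 100000 permutations within groups. On data simulated for KO against WT over both diets in hippocampus (13393 genes), edgeR recovered 46% of genes changed 1.25-fold and 78% of those changed 1.5-fold.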

Additional observations from a re-analysis of the deposited data

Results flagged for a closer look

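In 7 of 108 groups of 5 libraries, 1 library stood apart from the other 4, by a gap to its nearest neighbour above 0.71 of the group's range. Chance flags about 5% of groups, or 5.4 of 108. The 7 values came from 6 mice.

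In prefrontal cortex, the WT mouse 226 on the lacking diet had 641 RPKM of Glul, below 816 to 876 in its group, and 603.5 RPKM of Slc1a2, below 667 to 686. The WT mouse 317 on the normal diet had 196 RPKM of Slc1a3, above 159 to 170. The WT mouse 241 on the lacking diet had 2.77 RPKM of Aldh1l1, from 109 counts, below 4.72 to 5.21. In striatum, the WT mouse 286 on the normal diet had 9.76 RPKM of Gfap, above 5.68 to 6.85, and the KO mouse 339 on the lacking diet had 537.8 RPKM of Slc1a2, below 614 to 634. In hippocampus, the KO mouse 267 on the normal diet had 25.9 RPKM of Gjb6, above 15.9 to 17.8, in the library with the highest sum of ependymal and choroid plexus markers; the part of that sum in the value was not tested.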

How the results depend on the processing

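Of 99 counts of called genes, 84 never left 1.5 times their value, and of 113 values of single genes, 101 never changed their call. Most of these 84 counts were 0 with the main settings, so their steadiness says little. For the diet, no gene of the whole table passed. Most counts above 0 moved in some fit. Those that held were the 9 genes for hippocampus against striatum and striatum against prefrontal cortex, and other astrocyte genes for hippocampus against striatum. No value that passed its test changed sign, but some small values that did not pass did, among them S100b between hippocampus and striatum and Slc1a2 between hippocampus and prefrontal cortex. Both changes together (KO, lacking diet, against WT, normal diet) called 0 of the 9 genes in prefrontal cortex, but 1 with DESeq2, without TMM factors and without the filter, and 2 with RIN as a covariate or only the groups compared. KO against WT on the lacking diet gave 1 with RIN. KO against WT over both diets gave 1, not 2, with limma at either pseudocount. Of the other astrocyte genes, the first comparison called 1 with DESeq2, no filter, RIN or only the groups compared, and the second 1 with DESeq2. Over both diets they gave 3 with DESeq2, 4 with RIN, and 0 with limma, without TMM factors or at a mean of at least 1 CPM. The reactive genes gave 1 with DESeq2 in the first comparison, and over both diets 0 with limma or without TMM factors.

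WT mice on the normal diet alone number 5 per region in place of 20, and the share of all genes called in them is not reported here. In them, hippocampus against prefrontal cortex called 3 of the 9 genes, 16 other astrocyte genes and 9 reactive genes. With the mouse as a replicate block, an alternative chosen after seeing the data, these were 3, 15 and 9. Striatum against prefrontal cortex gave 17 other astrocyte genes and 8 reactive genes (8 with the block), and hippocampus against striatum 10 reactive genes (9 with the block). In all mice the block moved no count by over 1.5 times and changed 1 call, S100b between hippocampus and striatum (adjusted p = 0.0374).

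Leaving out 1 mouse at a time gave, in prefrontal cortex, 0 to 2 of the 9 genes for both changes together, 0 to 2 for KO on the lacking diet and 1 to 2 over both diets. Other astrocyte genes gave 0 to 1, 0 to 1 and 0 to 6, and reactive genes 0 to 1 on the lacking diet and 0 to 2 over both diets. Between regions (hippocampus against prefrontal cortex, hippocampus against striatum, striatum against prefrontal cortex), the 9 genes gave 5 to 6, 6 to 8 and 9 to 9, other astrocyte genes 30 to 30, 34 to 34 and 25 to 27, and reactive genes 14 to 17, 17 to 18 and 13 to 15. The cause of these changes was not tested. Depth limits Aldh1l1 most, with 88 to 292 counts per library.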
